A study of Mus musculus with 11 samples.

Results

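Autophagy and lysosome genes were examined in whole pancreas of mice with experimental pancreatitis. The 38 genes were chosen by name: the machinery that starts and builds autophagosomes, the cargo receptors, the MiT/TFE transcription factors, and proteins of the lysosomal membrane and lumen, with the cathepsins left aside. Earlier results of these data were known when they were chosen. A gene was measured if a probe set carried its symbol alone in the platform annotation, and with several such probe sets the one with the highest mean over the 11 arrays was used. This gave 37 of the 38 genes, among 19938 named genes in all. Optn was not analysed here. Both groups were wild-type C57Bl6J mice. The caerulein group (6 arrays) received 9 intraperitoneal injections at hourly intervals. Caerulein is a peptide that overstimulates the enzyme-secreting acinar cells through the cholecystokinin receptor. Its dose reads 50 mg/kg in the series text, and whether milligrams was meant was not checked. The NaCl group (5 arrays, although the series text counts 4 controls) received sodium chloride. The sources used here give no age, no sex and no interval from the last injection to sampling. The labels do not say whether every array comes from its own mouse, and p-values then cover only the spread between these samples, which may be technical. In whole tissue, fewer cells of a type and less RNA per cell cannot be told apart.

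Autophagy encloses cytoplasm in a double membrane, the autophagosome, which then fuses with a lysosome for degradation. The ULK kinase complex and the Beclin 1 lipid kinase complex start the membrane, WIPI proteins read the lipid made there, a ubiquitin-like conjugation system attaches LC3 and GABARAP proteins to it, and cargo receptors such as p62 link ubiquitinated cargo to these proteins. Acinar cells of the exocrine pancreas depend on this route, and vacuoles with undigested content are a known feature of acinar cells in pancreatitis.

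Values are log2 expression as deposited, and differences are caerulein minus NaCl means of these log2 values. A gene was called at an adjusted p under 0.05 in limma. Median log2 values per array were 5.20 to 5.25 in the caerulein group and 5.35 to 5.40 in the NaCl group, and the median difference over all named genes was -0.13. Shifting the arrays to an equal mean of 8 commonly used reference genes moved that median difference to -0.83. Of these reference genes 6 of 8 were themselves called higher as deposited (20.3% of named genes). Equal 75th percentiles gave -0.19, quantile normalisation applied anew -0.06 and cyclic loess -0.02. The pancreas label was checked against 12 acinar markers. Of these 4 were called lower, 1 higher and 7 not called, beside 34.3% lower and 20.3% higher among all named genes. In 8 all caerulein arrays lay below all NaCl arrays (20.6% of named genes). The largest falls were those of the cholecystokinin receptor gene Cckar (16.6-fold) and the acinar transcription factor gene Bhlha15 (4-fold). The 7 uncalled genes encode secreted enzymes and lay near the top of the scale in both groups, for example Cpa1 at 14.60 ± 0.04 (SD, n = 6) in caerulein arrays and 14.64 ± 0.03 (SD, n = 5) in NaCl arrays.

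In caerulein pancreas 15 of the 37 genes were higher, 7 were lower and 15 were not called. The largest rises were those of Sqstm1, the gene of the cargo receptor p62 (6.83-fold), the membrane-reading WIPI gene Wipi2 (3.75-fold), the lysosomal cholesterol transporter gene Npc1 (3.58-fold), the LC3 gene Map1lc3a (3.27-fold) and the transcription factor gene Tfe3 (2.15-fold). The largest fall was that of the cargo receptor gene Nbr1 (1.64-fold). The shares were 40.5% higher and 18.9% lower, beside 20.3% higher and 34.3% lower among all named genes (limma, adjusted p under 0.05). That background includes many dim genes. Without the dimmer 50 percent of probe sets, 15 of 36 members were higher and 6 lower, beside 33.9% and 38.2% of named genes. The members' share of higher genes thus stood out less among brighter genes. At least 2-fold and called, 5 members (13.5%) were higher and 0 lower, beside 6.14% and 1.44% of named genes. All caerulein arrays lay above all NaCl arrays for 13 members (35.1%, beside 16.7% of named genes) and below them for 4 (10.8%, beside 20.6%). The median member difference was 0.07. These splits depended on the scaling. After equal 75th percentiles 15 members were higher and 10 lower, beside 18.7% and 45.9% of named genes. Quantile normalisation applied anew gave 14 and 13, beside 19.3% and 23.4% of named genes. Cyclic loess gave 14 and 11, beside 21.9% and 18.2%, and equal reference gene means 5 and 27, beside 6.68% and 85.5%. The 5 members with at least a 2-fold rise were called higher, and Ulk1, Ulk2, Gabarap, Nbr1 and Neu1 lower, under each of these 4 rescalings.

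**Figure D1:**
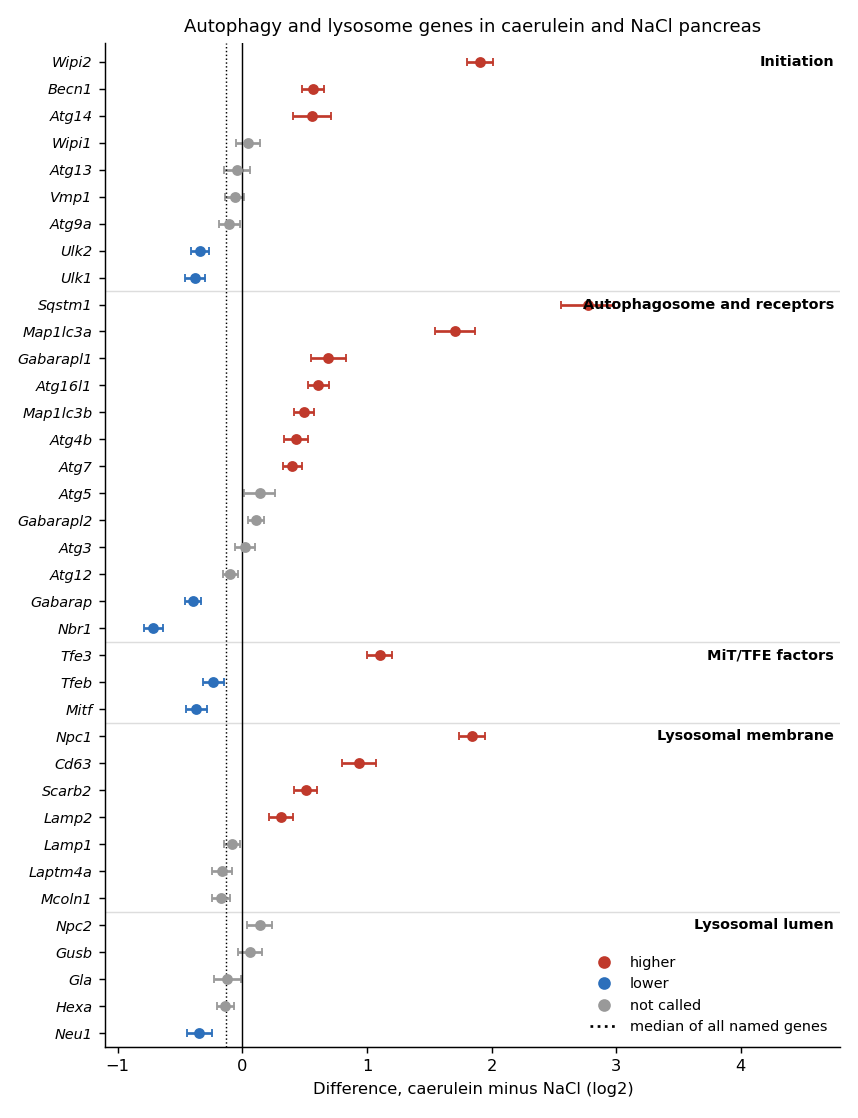
Difference between caerulein and NaCl for the 37 measured genes, by role, on the log2 scale; points are limma estimates, bars their SE, and colour gives the call. Sqstm1, Wipi2, Npc1, Map1lc3a and Tfe3 lie beyond 1, and Nbr1 is lowest at -0.72 (median of all named genes -0.13).

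Among the cargo receptors, which bind ubiquitinated or other selected cargo and LC3 proteins at the same time, Sqstm1 and Nbr1 went opposite ways. Sqstm1 had a lowest, median and highest log2 expression of 11.48, 12.13 and 12.76 in caerulein arrays, against 9.56, 9.28, 9.18, 9.44 and 9.28 in the 5 NaCl arrays. The lowest caerulein array lay 1.92 above the highest NaCl array, and the spread was wider in caerulein (12.12 ± 0.52, SD, n = 6) than in NaCl (9.35 ± 0.15, SD, n = 5). Caerulein replicates 1 to 3 had 11.48 to 11.95 and replicates 4 to 6 had 12.31 to 12.76. The mean levels of the macrophage and fibroblast marker lists were also highest in replicates 4 to 6 of the caerulein arrays, and their part in the Sqstm1 values was not tested. The rise was the largest of the 37 genes (log2 difference 2.77, SE 0.21, limma adjusted p = 3.86e-07). Nbr1 had 8.23, 8.32 and 8.39 in caerulein arrays, against 9.22, 8.85, 8.88, 9.15 and 9.07 in NaCl arrays. Every caerulein array was below every NaCl array (log2 difference -0.72, SE 0.08, limma adjusted p = 9.02e-06). Within each array, Sqstm1 minus Nbr1 averaged 3.80 ± 0.53 (SD, n = 6) in caerulein and 0.32 ± 0.08 (SD, n = 5) in NaCl. Such a difference within an array does not change when a whole array is shifted. This and other pairs of related genes were formed after the values were seen and not tested. Sqstm1 rose and Nbr1 fell without overlap, so their difference within arrays had to separate the groups and adds no further support. The NBR1 protein is a p62 partner in the same cargo clusters.

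The promoters of Sqstm1 and Nbr1 are shown because these genes had the largest rise and the largest fall of the 37. They are RefSeq sequences of build GRCm38.p6, from 250 bases before to 50 after an annotated start, 5′ to 3′ on the gene's strand. Sqstm1 is on the minus strand at chr11:50210771-50211070, and the Nbr1 windows are on the plus strand at chr11:101551857-101552156 and chr11:101552404-101552703. No base is in capitals, since none of the 3 windows holds CACGTG, the core described below.
Sqstm1: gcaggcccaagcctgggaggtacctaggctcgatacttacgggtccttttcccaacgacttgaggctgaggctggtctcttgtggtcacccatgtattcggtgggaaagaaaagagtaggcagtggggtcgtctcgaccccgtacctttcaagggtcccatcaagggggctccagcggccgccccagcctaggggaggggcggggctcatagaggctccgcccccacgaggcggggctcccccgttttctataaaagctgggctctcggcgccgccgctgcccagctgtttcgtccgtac
Nbr1 start a: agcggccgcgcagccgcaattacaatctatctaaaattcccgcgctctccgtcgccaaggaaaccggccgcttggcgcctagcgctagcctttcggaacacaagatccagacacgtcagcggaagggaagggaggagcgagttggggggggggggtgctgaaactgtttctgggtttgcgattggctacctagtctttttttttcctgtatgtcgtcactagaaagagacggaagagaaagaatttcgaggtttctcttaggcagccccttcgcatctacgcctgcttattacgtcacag
Nbr1 start b: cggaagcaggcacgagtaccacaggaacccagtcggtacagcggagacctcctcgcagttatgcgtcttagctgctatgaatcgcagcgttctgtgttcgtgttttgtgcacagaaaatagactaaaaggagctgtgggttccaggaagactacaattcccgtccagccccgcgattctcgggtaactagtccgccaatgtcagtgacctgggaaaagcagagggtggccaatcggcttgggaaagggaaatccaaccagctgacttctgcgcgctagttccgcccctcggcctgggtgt

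The LC3 and GABARAP genes encode the ubiquitin-like proteins that are attached to the autophagosome membrane. Of 5 such genes measured, 3 were higher, 1 lower and 1 not called, beside 20.3% higher and 34.3% lower among all named genes. Among all named genes the groups did not overlap for 16.7% (higher) and 20.6% (lower). Map1lc3a had 7.76, 8.30 and 8.51 in caerulein arrays, against 6.68, 6.34, 6.36, 6.75 and 6.30 in NaCl arrays, with no overlap (log2 difference 1.71, SE 0.16, limma adjusted p = 2.41e-06). The highest 3 of its caerulein values were replicates 1 to 3, at 8.45 to 8.51. Its relative Map1lc3b was higher by 0.50 (SE 0.08) and Gabarapl1 by 0.69 (SE 0.14) as deposited, and with equal reference gene means these were -0.21 and -0.01. Map1lc3b was 9.05 to 9.24 in caerulein arrays and 8.42 to 8.88 in NaCl arrays, and Gabarapl1 was 7.69 to 8.44 in caerulein arrays and 6.99 to 7.61 in NaCl arrays, so neither overlapped. Another probe set for Map1lc3b gave 0.57 (SE 0.09, limma adjusted p = 0.000172). Gabarap had 9.73, 9.81 and 9.94 in caerulein arrays, against 10.20, 10.31, 10.10, 10.25 and 10.20 in NaCl arrays. It was lower, without overlap, by a small amount (log2 difference -0.40, SE 0.06, limma adjusted p = 0.000246). Gabarapl2 was not called (log2 difference 0.11, SE 0.07, limma adjusted p = 0.191). Within arrays, Gabarapl1 minus Gabarap was -2.15 to -1.51 in caerulein and -3.32 to -2.64 in NaCl, and Map1lc3a minus Map1lc3b was -1.42 to -0.61 in caerulein and -2.29 to -1.95 in NaCl. Neither range overlapped between groups. For Gabarapl1 minus Gabarap this had to be so, since 1 gene rose and the other fell without overlap. For Map1lc3a minus Map1lc3b it also had to be so. The gap of 1.01 between the groups for Map1lc3a was wider than the whole range of Map1lc3b, 8.42 to 9.24. Neither difference adds further support.

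The conjugation enzymes attach these proteins to lipid. Atg7 is the activating enzyme shared by both conjugation routes, Atg3 transfers LC3 to lipid, Atg12, Atg5 and Atg16l1 form the complex that places it, and the protease Atg4b processes LC3. Of the 6 genes 3 were higher as deposited, namely Atg16l1 (log2 difference 0.61, SE 0.09, limma adjusted p = 9.19e-05), Atg4b (0.43, SE 0.10) and Atg7 (0.40, SE 0.08). In all of these the groups did not overlap, although the sizes were 1.32-fold to 1.52-fold and the differences became -0.09, -0.27 and -0.30 with equal reference gene means. Atg16l1 was 7.04 to 7.30 in caerulein arrays and 6.28 to 6.76 in NaCl arrays. Atg4b was 6.99 to 7.08 in caerulein arrays and 6.17 to 6.76 in NaCl arrays, and Atg7 was 7.09 to 7.33 in caerulein arrays and 6.62 to 6.97 in NaCl arrays. Atg3, Atg5 and Atg12 were not called, with differences of 0.02, 0.14 and -0.10. The autophagosome genes as a whole (conjugation, LC3 and GABARAP, receptors) had 7 of 13 higher and 2 lower, with a median of 0.40, beside 20.3% and 34.3% and a median of -0.13 over all named genes. With equal reference gene means 2 of the 13 were higher, 9 were lower and the median was -0.30. All named genes then had 6.68% higher, 85.5% lower and a median of -0.83.

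**Figure D2:**
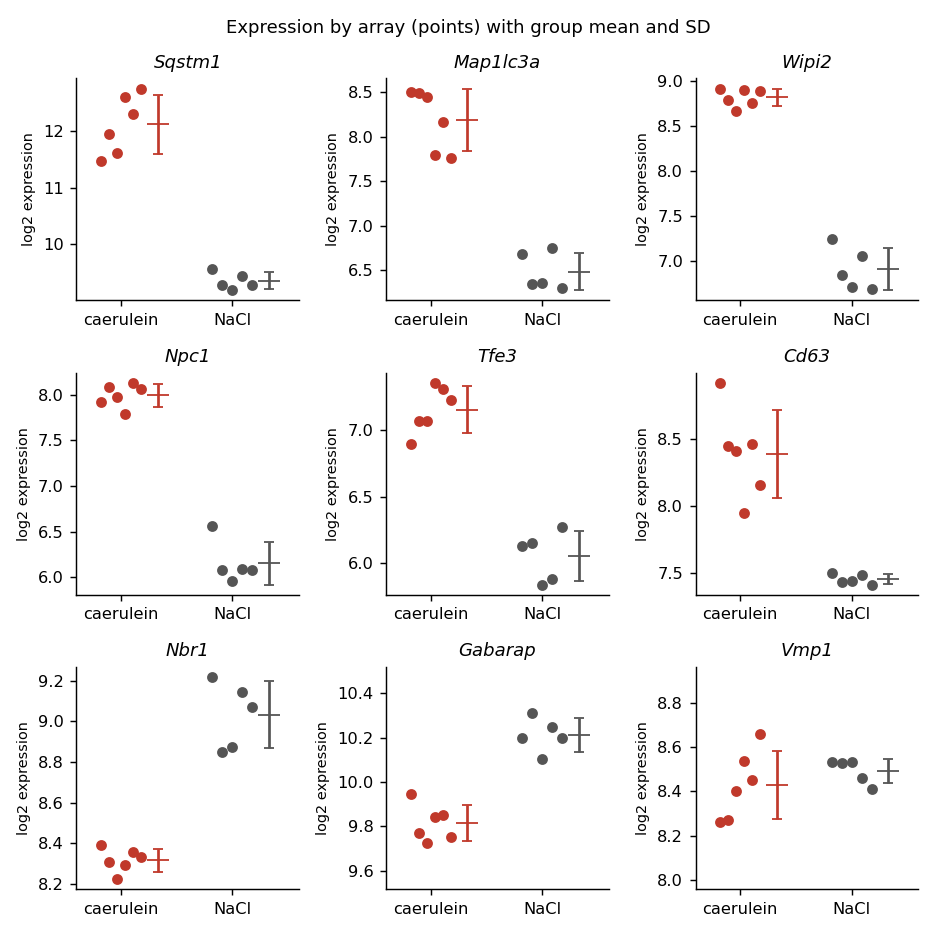
Log2 expression of 9 genes in each array (points; caerulein in red, NaCl in grey) with the group mean and SD beside them; vertical scales differ between panels. The groups do not overlap except for Vmp1, where the 6 caerulein values of 8.26 to 8.66 span the 5 NaCl values of 8.41 to 8.53.

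The initiation genes moved in different directions, with 3 of 9 higher, 2 lower and 4 not called, beside 20.3% higher and 34.3% lower among all named genes. With equal reference gene means 1 was higher and 6 lower (named genes 6.68% and 85.5%). Quantile normalisation applied anew gave 3 and 5 (19.3% and 23.4%), and cyclic loess 3 and 4 (21.9% and 18.2%). Wipi2, which reads the lipid of the growing membrane and recruits the conjugation complex, had 8.67, 8.84 and 8.91 in caerulein arrays, against 7.25, 6.85, 6.72, 7.05 and 6.69 in NaCl arrays. The lowest caerulein array lay 1.42 above the highest NaCl array, and the fit gave a log2 difference of 1.91 (SE 0.10, limma adjusted p = 1.30e-08). Its relative Wipi1 was not called, at 6.55 to 7.09 in caerulein arrays and 6.62 to 6.92 in NaCl arrays (log2 difference 0.05, SE 0.10, limma adjusted p = 0.725). Wipi2 minus Wipi1 within arrays was 1.98 ± 0.15 (SD, n = 6) in caerulein and 0.12 ± 0.18 (SD, n = 5) in NaCl. This difference had to separate the groups, since the gap of 1.42 for Wipi2 was wider than the whole range of Wipi1. It adds no further support.

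The kinase genes Ulk1 and Ulk2, whose products start autophagy under the control of mTORC1 and AMPK, were both lower. Ulk1 had 7.16, 7.21 and 7.25 in caerulein arrays, against 7.66, 7.79, 7.36, 7.68 and 7.46 in NaCl arrays (log2 difference -0.38, SE 0.08, limma adjusted p = 0.00164). Ulk2 had 6.16, 6.25 and 6.37 in caerulein arrays, against 6.53, 6.78, 6.56, 6.48 and 6.63 in NaCl arrays (log2 difference -0.34, SE 0.07, limma adjusted p = 0.00195). Neither overlapped between groups, and the 2 genes fell by similar amounts, since Ulk1 minus Ulk2 within arrays averaged 0.95 ± 0.09 (SD, n = 6) in caerulein and 0.99 ± 0.18 (SD, n = 5) in NaCl.

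Becn1 and Atg14, subunits of the lipid kinase complex that follows ULK, were higher as deposited and below 0 with equal reference gene means (-0.14 for each). Becn1 had 7.75, 7.94 and 8.12 in caerulein arrays, against 7.37, 7.22, 7.36, 7.46 and 7.42 in NaCl arrays (log2 difference 0.57, SE 0.09, limma adjusted p = 0.000211). Its caerulein replicates 1 to 3 had 7.75 to 7.82 and replicates 4 to 6 had 8.06 to 8.12. Atg14 had 5.20, 5.85 and 6.26 in caerulein arrays, against 5.32, 5.14, 5.03, 5.45 and 5.21 in NaCl arrays (log2 difference 0.56, SE 0.15, limma adjusted p = 0.00938). The groups overlapped for Atg14 through caerulein replicate 4, which at 5.20 lay below 3 of the NaCl arrays. Atg13, a regulatory subunit of the ULK complex, was not called at -0.04, nor was Atg9a, the membrane protein that seeds the autophagosome, at -0.11. Vmp1, an endoplasmic reticulum protein needed for autophagosome formation that was described as a pancreatitis-induced gene in rat, was not called (log2 difference -0.06, SE 0.08, limma adjusted p = 0.543). Its values were 8.26, 8.43 and 8.66 (lowest, median and highest) in caerulein arrays, against 8.53, 8.53, 8.53, 8.46 and 8.41 in NaCl arrays. The caerulein arrays thus spread more widely, on both sides of the NaCl arrays. Caerulein replicates 1 to 3 lay below every NaCl array, and replicates 4 to 6 lay within or above the NaCl range. The group means hide this split, and its source was not tested. Vmp1 and Atg9a were called lower with quantile normalisation applied anew (-0.38 and -0.35), with cyclic loess (-0.25 and -0.22) and with equal reference gene means (-0.76 and -0.81).

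**Figure D3:**
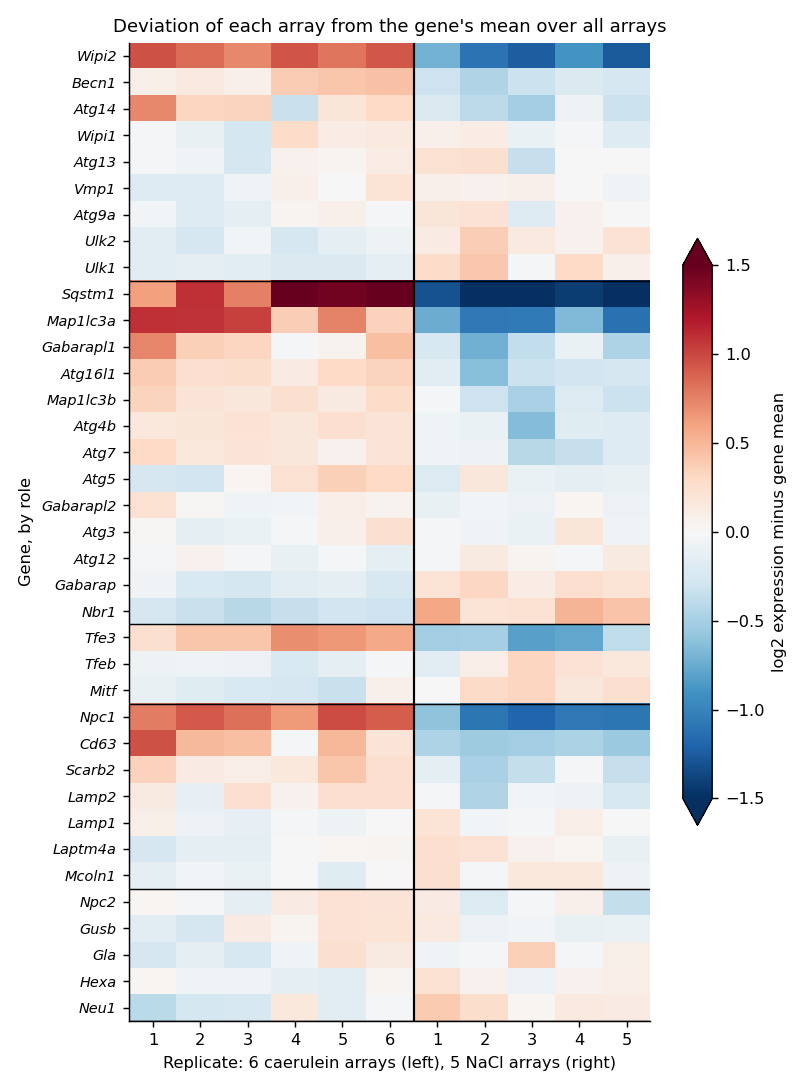
Log2 expression of each gene in each array minus the gene's mean over all 11 arrays, with genes by role and, within a role, by difference; the 6 caerulein arrays are left of the vertical line and the 5 NaCl arrays right of it. The rows of Wipi2, Sqstm1, Map1lc3a, Tfe3 and Npc1 change colour at the line, and Ulk1 and Ulk2, Gabarap and Nbr1 change the other way. Colours saturate at 1.5 either side of 0.

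The MiT/TFE factors TFEB, TFE3 and MITF enter the nucleus when lysosomal mTORC1 signalling is low and bind an E-box type site in autophagy and lysosome genes. Of the 3 genes Tfe3 was higher, while Tfeb and Mitf were lower as deposited (20.3% higher and 34.3% lower among all named genes). Tfe3 had 6.90, 7.15 and 7.36 in caerulein arrays, against 6.13, 6.15, 5.84, 5.88 and 6.27 in NaCl arrays, without overlap (log2 difference 1.10, SE 0.10, limma adjusted p = 2.64e-06). Its caerulein replicates 1 to 3 had 6.90 to 7.07 and replicates 4 to 6 had 7.23 to 7.36. Tfeb had 5.78, 5.93 and 5.98 in caerulein arrays, against 5.84, 6.11, 6.34, 6.22 and 6.17 in NaCl arrays. Its groups overlapped because NaCl replicate 1, at 5.84, lay among the caerulein arrays (log2 difference -0.23, SE 0.08, limma adjusted p = 0.0388). Of the 11 fits that left out 1 array, 9 gave Tfeb an adjusted p between 0.0509 and 0.0989. Mitf was lower by a similar amount (log2 difference -0.37, SE 0.09, limma adjusted p = 0.00367), with its lower-mean probe set at -0.01 (SE 0.09). Its values were 4.66 to 5.07 in caerulein arrays and 4.99 to 5.31 in NaCl arrays, with an overlap. With quantile normalisation applied anew and with cyclic loess neither Tfeb (limma adjusted p = 0.165 and 0.318) nor Mitf (limma adjusted p = 0.0581 and 0.131) was called. Tfe3 minus Tfeb within arrays was 0.96 to 1.58 in caerulein and -0.50 to 0.29 in NaCl. This difference had to separate the groups, since the gap of 0.63 for Tfe3 was wider than the whole range of Tfeb, 5.78 to 6.34. It adds no further support. All values here are transcript levels, and the location and activity of the factors were not measured.

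The E-box core that these factors bind was looked for in RefSeq promoter windows (GRCm38.p6) on both strands, as CACGTG and as its flanked palindrome TCACGTGA, which contains the core. Windows were found for 33 of the 38 genes, 41 windows in all. Npc1, Map1lc3a, Becn1, Atg16l1 and Atg12 had none and were not searched. The windows thus covered 11 of the 15 genes called higher and all 7 called lower. CACGTG was in 7 of the 33 genes (21.2%), beside 8.09% of the 27025 genes of the table, and the palindrome in 3 (9.09%, beside 1.12%). The 3 genes with the palindrome were Mcoln1, a lysosomal calcium channel, Gla, the hydrolase alpha-galactosidase A, and Atg3, and none was called here (differences -0.17, -0.12 and 0.02). Of the other 4 with the core, Atg7 and Atg14 were called higher, and Lamp1 and Atg5 were not called. Among the windows of the 7 genes called lower, 0 held the core. The antioxidant response core TGACNNNGC, bound by NRF2, was in 7 of 33 genes (21.2%, beside 14.0%), and TGATGNAA, a core bound by ATF4 with C/EBP, in 0 (beside 4.51%). A match describes these letters in this window and is not a measured binding site.

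The stretches that hold the core in the genes with the palindrome, and in Lamp1 with 4 copies of the core, show how the sites lie before the start. Capitals mark CACGTG, or the 8 letters where the palindrome is complete. They are at chr8:3500428-3500499 (plus strand), chr16:45158715-45158783 (plus strand), chrX:134601174-134601252 (minus strand) and chr8:13159080-13159171 (plus strand).
Mcoln1: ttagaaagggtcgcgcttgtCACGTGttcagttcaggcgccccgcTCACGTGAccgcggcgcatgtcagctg
Atg3: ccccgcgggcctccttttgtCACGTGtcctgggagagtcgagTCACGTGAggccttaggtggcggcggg
Gla: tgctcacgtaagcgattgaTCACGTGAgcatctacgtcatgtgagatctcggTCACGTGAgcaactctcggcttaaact
Lamp1: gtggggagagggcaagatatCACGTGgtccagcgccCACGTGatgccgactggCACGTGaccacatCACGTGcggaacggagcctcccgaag

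Of the 7 lysosomal membrane genes 4 were higher and 0 lower as deposited, beside 20.3% and 34.3% of all named genes. The list had 3 higher and 3 lower with quantile normalisation applied anew (named genes 19.3% and 23.4%) and with cyclic loess (21.9% and 18.2%). Equal 75th percentiles gave 4 and 2 (18.7% and 45.9%), and equal reference gene means 1 and 5 (6.68% and 85.5%). Npc1, which exports cholesterol from the lysosome, had 7.79, 8.02 and 8.13 in caerulein arrays, against 6.56, 6.08, 5.96, 6.09 and 6.07 in NaCl arrays. NaCl replicate 1 was the highest of its group, and the lowest caerulein array still lay 1.23 above it (log2 difference 1.84, SE 0.11, limma adjusted p = 2.45e-08). Npc2, the lumenal protein that hands cholesterol to NPC1, was not called (log2 difference 0.14, SE 0.10, limma adjusted p = 0.271). Npc1 minus Npc2 within arrays was 0.74 ± 0.17 (SD, n = 6) in caerulein and -0.96 ± 0.22 (SD, n = 5) in NaCl, without overlap between groups. This had to be so, since the gap of 1.23 for Npc1 was wider than the whole range of Npc2, 6.82 to 7.40. It adds no further support.

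The tetraspanin gene Cd63, found on late endosomes and secretory vesicles, had 7.94, 8.43 and 8.92 in caerulein arrays, against 7.50, 7.43, 7.44, 7.48 and 7.41 in NaCl arrays. The NaCl arrays spanned 0.09, the caerulein arrays spanned 0.98, and the groups did not overlap (log2 difference 0.94, SE 0.14, limma adjusted p = 0.000121). With equal reference gene means the Cd63 difference was 0.24 and not called (limma adjusted p = 0.149). Scarb2, the receptor that brings glucocerebrosidase to the lysosome, was higher by 0.51 (SE 0.09) and Lamp2, a major lysosomal membrane glycoprotein, by 0.31 (SE 0.10, limma adjusted p = 0.0214). With equal reference gene means these were -0.19 and -0.39. Scarb2 was 7.77 to 8.08 in caerulein arrays and 7.18 to 7.63 in NaCl arrays, without overlap, and Lamp2 was 8.12 to 8.50 in caerulein arrays and 7.79 to 8.22 in NaCl arrays, with an overlap. Lamp2 was called neither with cyclic loess (0.13) nor with quantile normalisation applied anew (-0.003), nor without NaCl replicate 2 (limma adjusted p = 0.0504). Its companion Lamp1 was not called (9.44 to 9.65 in caerulein arrays, 9.52 to 9.77 in NaCl arrays, difference -0.08), and neither were Laptm4a, a small lysosomal membrane protein (-0.16), and the channel gene Mcoln1 (-0.17). These 3 were called lower with quantile normalisation applied anew (-0.39, -0.46 and -0.37), with cyclic loess (-0.25, -0.34 and -0.25) and with equal reference gene means (-0.79, -0.86 and -0.87).

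Of the 5 genes of the lysosomal lumen 0 were higher and 1 was lower, beside 20.3% and 34.3% of all named genes. All 5 were lower with equal reference gene means (85.5% of named genes), and 2 were lower under each of the other 3 rescalings. The share of named genes lower there was 45.9% with equal 75th percentiles, 23.4% with quantile normalisation applied anew and 18.2% with cyclic loess. Neu1, the lysosomal sialidase, had 6.71, 6.91 and 7.28 in caerulein arrays, against 7.51, 7.38, 7.14, 7.26 and 7.23 in NaCl arrays (log2 difference -0.35, SE 0.10, limma adjusted p = 0.0158). Caerulein replicate 4, at 7.28, overlapped with the NaCl group. Hexa, a subunit of beta-hexosaminidase, Gla, the beta-glucuronidase gene Gusb and Npc2 had differences of -0.14, -0.12, 0.07 and 0.14 and were not called. Hexa was called lower with equal 75th percentiles (-0.20), with quantile normalisation applied anew (-0.35), with cyclic loess (-0.23) and with equal reference gene means (-0.84). The lumen list had a median of -0.12, next to -0.13 for all named genes. Its mean log2 level was 6.69 to 6.73 in caerulein replicates 1 to 3 and 6.87 to 6.95 in replicates 4 to 6. The NaCl arrays lay at 6.82 to 7.01.

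Markers of macrophages and monocytes, cells rich in lysosomes, were higher in part. Of 16 such markers 9 were higher, among them Cd14 (4.94-fold) and Lyz2 (4.02-fold), and 0 lower. All named genes had 20.3% and 34.3%, the background for each marker list here. Not called were 7, namely Csf1r (log2 difference 0.16), Mrc1 (0.33), Cx3cr1 (-0.06), C1qa (0.13), C1qb (0.15), C1qc (-0.21) and Ms4a7 (-0.002). The summed linear level of the 16 markers was 1240.1 to 2424.0 in caerulein arrays and 831.1 to 917.5 in NaCl arrays. With equal reference gene means 6 of these markers were higher and 8 lower, beside 6.68% and 85.5% of named genes. Their mean log2 level was 6.34, 6.03, 6.03, 6.55, 6.36 and 6.74 in caerulein replicates 1 to 6, against 5.52 to 5.60 in NaCl arrays. Caerulein replicate 6 was thus highest, as it was for Sqstm1 (12.76) and for the saposin precursor gene Psap (10.71), while Cd63, Map1lc3a and Atg14 were highest in replicate 1. No zero exists on this scale, and Ms4a7 stayed near 3.75 in both groups. Neutrophil markers were higher in 0 and lower in 2 of 10 (summed level 252.9 to 385.5 in caerulein, 293.4 to 315.6 in NaCl), T and B cell markers in 0 and 4 of 7 (227.1 to 276.6 and 289.0 to 325.4). Acinar markers were higher in 1 and lower in 4 of 12 (144032.7 to 150307.0 in caerulein and 156372.9 to 160917.8 in NaCl), duct markers in 3 and 2 of 6 (4125.7 to 4848.9 and 1484.0 to 1762.5, with Krt19 20.9-fold and Krt7 3.85-fold higher and Muc1 2.21-fold lower), and fibroblast markers in 3 and 1 of 8 (1447.2 to 2580.9 and 1440.0 to 1753.9). Endothelial markers were higher in 2 and lower in 1 of 7 (455.1 to 513.6 in caerulein and 431.8 to 485.9 in NaCl) and islet markers in 0 and 3 of 7 (2123.8 to 4483.3 and 1647.6 to 4910.8). The part of these cells in the member differences was not tested.

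Other genes of the pathway were taken from lists chosen from general knowledge, with earlier results of these data known. Their shares are thus no independent support. Of 115 measured, 37 were higher (32.2%) and 43 lower (37.4%), and their median difference was -0.07, beside 20.3%, 34.3% and -0.13 for all named genes. Without the dimmer 50 percent of probe sets, 33.9% of named genes were higher and 38.2% lower, close to the shares of this unfiltered list. With equal reference gene means 5 were higher and 96 lower, beside 6.68% and 85.5% of named genes. Other initiation genes had 6 of 12 higher and 3 lower. Atg2a, a lipid transfer protein of the growing membrane, had a 2.19-fold higher level (log2 difference 1.13, SE 0.09, limma adjusted p = 6.49e-07) and the ULK subunit gene Atg101 a 1.8-fold higher one, though Atg101 was not called with equal reference gene means (0.15). The lipid scramblase gene Tmem41b was the largest fall (log2 difference -0.60, SE 0.08, limma adjusted p = 6.82e-05).

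Other autophagosome and receptor genes had 5 of 17 higher (29.4%) and 6 lower (35.3%), beside 20.3% and 34.3% of all named genes. With equal reference gene means 2 were higher and 13 lower, beside 6.68% and 85.5%. Trp53inp1, a stress-induced p53 target whose product binds LC3 proteins, was at 11.09 to 11.66 in caerulein arrays and 7.33 to 8.13 in NaCl arrays, a 12.8-fold rise (log2 difference 3.68, SE 0.15, limma adjusted p = 1.51e-09). The mitophagy receptor gene Bnip3 was at 5.25 to 6.09 in caerulein arrays and 7.10 to 7.55 in NaCl arrays, 2.94-fold lower (log2 difference -1.56, SE 0.15, limma adjusted p = 2.44e-06). Chosen after their values were seen, Fundc1, another mitophagy receptor, was 2.15-fold lower and Tax1bp1, a receptor of ubiquitinated cargo, 2.12-fold higher. These 4 calls kept their direction under the 4 rescalings.

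Fusion genes, which tether autophagosomes to lysosomes, had 6 of 13 higher and 4 lower, beside 20.3% and 34.3% of all named genes. Equal reference gene means gave 0 and 12, beside 6.68% and 85.5%. The tether subunit gene Vps41 fell 1.78-fold (log2 difference -0.83, SE 0.11, limma adjusted p = 6.60e-05) and the late endosomal GTPase gene Rab7 rose 1.54-fold (log2 difference 0.63, SE 0.09, limma adjusted p = 8.02e-05), though Rab7 was not called with equal reference gene means (-0.07). The vacuolar ATPase, which acidifies the lysosome, had 5 of 15 subunit genes higher and 6 lower. Atp6v1b2 stood apart at 10.18 to 11.25 in caerulein arrays and 7.94 to 8.31 in NaCl arrays, a 6.35-fold rise (log2 difference 2.67, SE 0.18, limma adjusted p = 1.38e-07). The next, Atp6v0e, was 1.58-fold higher as deposited, and -0.04 with equal reference gene means. The remaining 13 subunit genes differed by 0.51 or less in size.

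Lysosomal hydrolases, their cofactors and their sorting enzymes had 11 of 23 lower and 4 higher. Ids and Arsb, sulphatases of glycosaminoglycan breakdown, were 1.95-fold and 1.78-fold lower (log2 difference -0.96, SE 0.11, limma adjusted p = 1.16e-05 for Ids). Psap, the precursor of the saposin cofactors, was 1.65-fold higher as deposited and 0.03 with equal reference gene means. Other lysosomal membrane genes had 4 of 15 higher and 5 lower, led by the nucleic acid transporter gene Sidt2 (1.79-fold higher) and the chloride transporter gene Clcn7 (1.61-fold higher), neither called with equal reference gene means (0.14 and -0.02). The mTORC1 machinery of the lysosomal surface had 7 of 20 higher and 8 lower. Lamtor2, a subunit of the complex that anchors the Rag GTPases to the lysosome, was 1.82-fold lower (log2 difference -0.87, SE 0.09, limma adjusted p = 5.91e-06), chosen after its value was seen, and was called lower under each of the 4 rescalings. The GTPase genes Rheb (1.86-fold) and Rragc (1.83-fold), whose products recruit and activate mTORC1, were higher, with 0.20 and 0.17 left with equal reference gene means, the first called (limma adjusted p = 0.0317) and the other not (limma adjusted p = 0.124).

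**Figure D4:**
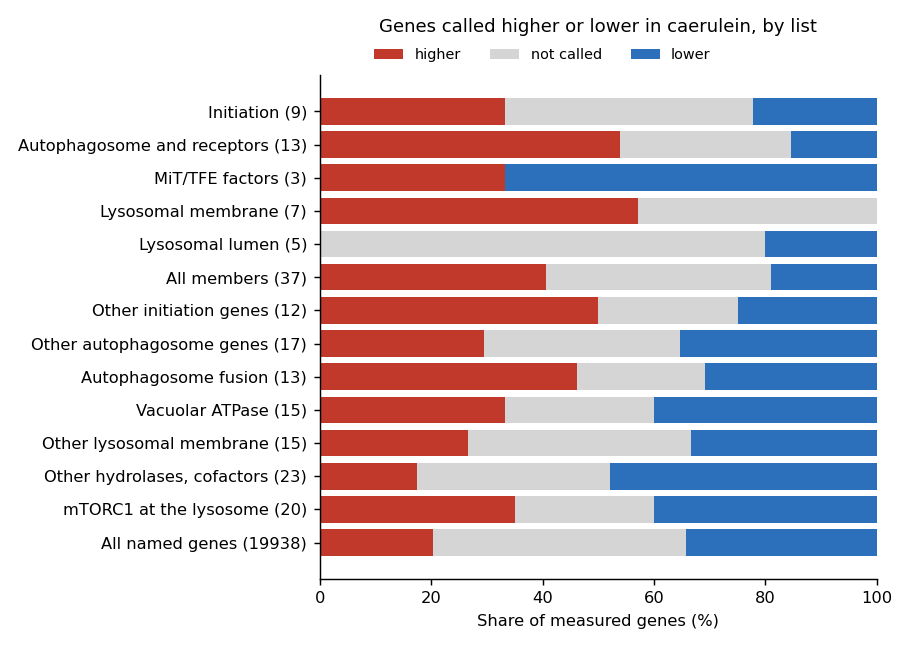
Share of the measured genes of each list (number in parentheses) called higher, not called or called lower in caerulein against NaCl (limma, adjusted p under 0.05, values as deposited). Among members 40.5% are higher and 18.9% lower, and among all named genes 20.3% and 34.3%.

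**Figure D5:**
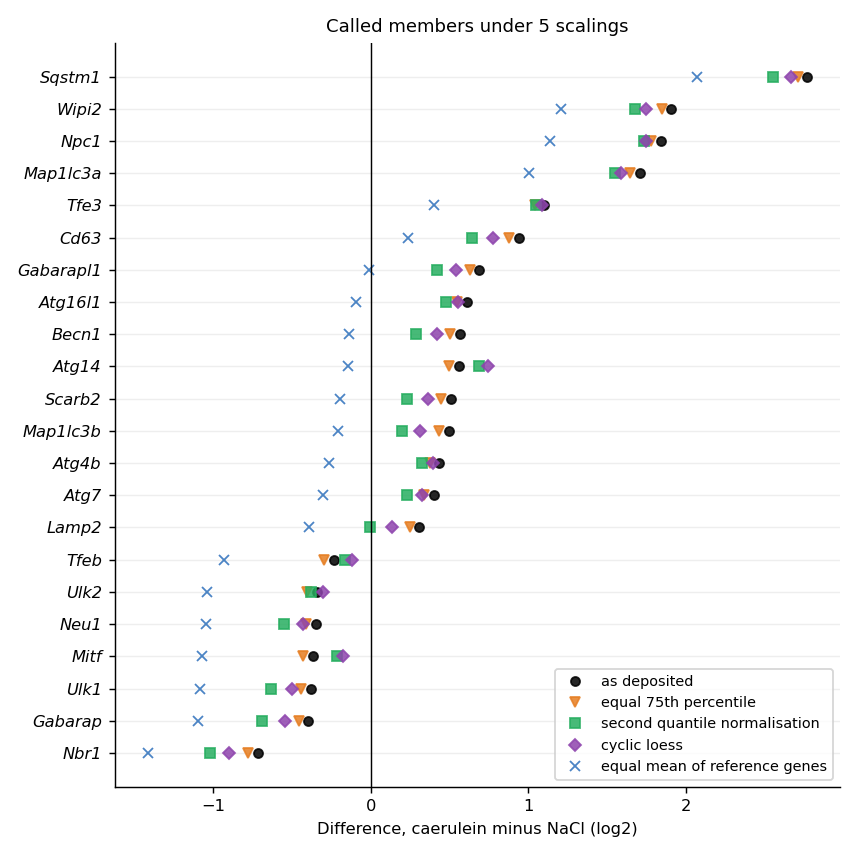
Difference between caerulein and NaCl (log2) of the 22 called members with values as deposited and under 4 rescalings. Sqstm1, Wipi2, Npc1, Map1lc3a, Tfe3 and Cd63 stay above 0 at each setting, and 9 members called higher fall below 0 with equal reference gene means.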

How the data were processed

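The deposited table holds log2 expression values of 35556 probe sets on 11 Affymetrix arrays, made by the authors with RMA (background correction, quantile normalisation and summary of probes) in oligo, and limma is also named, per the submitters' processing notes. Of these probe sets 21789 carry 1 gene symbol in the platform annotation, 1621 several and 12146 none. Groups followed the sample labels. Each probe set was fitted with limma 3.58.1 (R 4.3.3, lmFit and eBayes, 2 groups, no covariate), and p-values were adjusted over all probe sets by Benjamini-Hochberg. Of a gene's several probe sets the one with the highest mean stood for it. All members are described; of other lists the 2 called genes with the largest difference and the largest against the majority are named. Members and lists were chosen with earlier results of these data known. The scripts were tested on simulated data. Alternatives were other variance priors, array weights, 4 rescalings, a filter on dim probe sets, the replicate block, each array left out, a fold minimum of 2 and other probe sets. Arrays have no read depth, and precision rests on how many there are.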

Additional observations from a re-analysis of the deposited data

Results flagged for a closer look

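In 4 of the 74 sets of arrays examined (37 genes, 2 groups), 1 array stood away from the rest of its group by Dixon's criterion, and chance alone marks about 1 in 20 sets. All 4 were in the NaCl group. Npc1 was highest in NaCl replicate 1, at 6.56, with the next array at 6.09. Gusb was highest in the same array, at 6.995, with the next at 6.81. Atg3 was highest in NaCl replicate 4, at 7.15, with the next at 6.95. Atg4b was lowest in NaCl replicate 3, at 6.17, with the next at 6.63.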

How the results depend on the processing

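As deposited 15 members were higher, 7 lower, and 15713 probe sets were called. With equal means of the reference genes there were 5 higher, 27 lower and 32314 probe sets called. Lower members numbered 13 with quantile normalisation applied anew and 11 with cyclic loess, beside 23.4% and 18.2% of named genes. A fold minimum of 2 left 5 higher, 0 lower and 2109 probe sets. Equal reference gene means turned the sign of Becn1 (-0.135), Atg14 (-0.142), Wipi1 (-0.655), Atg3 (-0.679), Atg5 (-0.562), Atg7 (-0.301), Atg16l1 (-0.094), Atg4b (-0.268), Map1lc3b (-0.205), Gabarapl1 (-0.011), Gabarapl2 (-0.591), Lamp2 (-0.393), Scarb2 (-0.193), Gusb (-0.636) and Npc2 (-0.560). Equal 75th percentiles turned Wipi1 (-0.015) and Atg3 (-0.038). Quantile normalisation applied anew turned Wipi1 (-0.082), Atg3 (-0.149), Gabarapl2 (-0.203), Lamp2 (-0.003), Gusb (-0.075) and Npc2 (-0.069). Cyclic loess turned Atg3 (-0.042), Gabarapl2 (-0.065) and Gla (0.010). The lower-mean probe set turned Gabarapl2 (-0.205). By construction these rescalings shift whole arrays or reshape their values, and which scale is nearer the tissue was not tested. Leaving out 1 array gave 14 to 15 members higher and 6 to 7 lower, with Atg13 from -0.135 to 0.010, Wipi1 from -0.005 to 0.104 and Atg3 from -0.022 to 0.071. Tfeb lost its call without any of 9 arrays and Lamp2 without NaCl replicate 2, while Mcoln1 gained one without NaCl replicate 5. With the replicate block 15 members were higher and 6 lower, Tfeb lost its call (-0.25, limma adjusted p = 0.0795) and Atg3 was at -0.022. Whether the numbers pair the samples was not settled. Deviations of same-numbered arrays correlated at only -0.052 to 0.06, but for 4 of 5 numbers the best partner was the array of the same number. Trended variances and array weights changed no member's call. Without the dimmer 50 percent of probe sets 15 members were higher and 6 lower, since Mitf was left out. Named genes then had 33.9% higher and 38.2% lower, beside 20.3% and 34.3% as deposited.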

Other observations

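Arrays of 1 group differed in how widely the members spread. The SD of a member had a median of 0.126 over the 6 caerulein arrays and 0.157 over the 5 NaCl arrays, with a highest value of 0.52 in caerulein (Sqstm1) and 0.24 in NaCl. Of the 3 members with several single-symbol probe sets, Map1lc3b was called higher by both, Gabarapl2 by neither, and Mitf was called lower by one and not by the other, whose mean was 2.88 in caerulein arrays and 2.89 in NaCl arrays.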
